A study of Mus musculus with 8 samples.

Results

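The BCL2 family genes described here are 10 genes that set the balance between survival and death of a cell: Mcl1, Bcl2, Bcl2l1, Bcl2a1d, Bax, Bak1, Bcl2l11, Bid, Bad and Bbc3. They were matched on a single-colour Agilent mouse array by RefSeq transcript accession, which gave 13 probes among 55681, 2 each for Mcl1, Bcl2l1 and Bad and 1 each for the other genes. All 10 genes passed the filter on dim probes, among 21251 genes tested, of which 13087 have a symbol. RNA came from Ly6G+ neutrophils, taken with magnetic beads from the bone marrow of WT mice or of ATF3 KO mice, both on a C57BL/6 background. There were 4 samples per genotype, and ATF3 is a bZIP transcription factor that many kinds of stress induce. The study asked about the migration of neutrophils. According to the design text, RNA was taken at once after sorting, whereas the description of 7 samples names a culture in methylcellulose with 4-OHT, and the labels do not settle this. The age of the mice, the structure of the deleted allele and whether animals were pooled are not given in the sources used here. Because separate animals are not stated either, p-values measure only the spread between these samples, which may be technical.

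Proteins of this family act at the outer mitochondrial membrane. The anti-apoptotic members hold the pore-forming proteins BAX and BAK in check, and the BH3-only proteins, which share a single short homology stretch with the rest, either neutralise the anti-apoptotic members or activate the pore formers directly. Once the pores open, cytochrome c leaves the mitochondria and caspases are activated. Neutrophils are short-lived, and in mice they are known to depend on MCL1, which itself turns over quickly, while BIM, the product of Bcl2l11, is a main driver of their spontaneous death.

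Levels below are log2 signals relative to the 75th percentile of each array, and a difference is ATF3 KO minus WT on that log2 scale. The levels of different probes are not comparable with each other. The 75th percentile itself ran from 151 to 216 in WT and from 113 to 161 in ATF3 KO arrays (two-sided exact permutation p = 0.0857), and from 46.4 to 55.3% of probes in WT and from 46.0 to 53.2% in ATF3 KO were above background (exact permutation p = 0.486). No spot was saturated. The median difference of all genes was −0.11, and relative values below are given against it. The single probe for Atf3, the deleted gene, was at 0.73 ± 0.07 in WT (SD, n = 4) and at 1.24 ± 0.27 in ATF3 KO samples. The Atf3 difference of 0.51 (SE 0.14) did not pass (limma adjusted p = 0.121). The sources used here do not place this probe inside or outside the deletion, so it does not check the genotype labels. Of 12 neutrophil markers, 11 were measured and above background on all 8 arrays, and Ly6g itself has no named probe.

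None of the 10 BCL2 family genes passed the threshold of a limma adjusted p under 0.05, against 0.447% of all genes (0.08% lower and 0.367% higher in ATF3 KO), and 0 of the 13 probes passed when every probe was tested, against 0.208%. At an unadjusted p under 0.05 there was 1 of 10 genes, Bcl2l11, lower in ATF3 KO, against 23.9% of all genes (14.5% lower and 9.38% higher). Likewise 1 of the 13 probes had an unadjusted p under 0.05, against 22.6% of all probes. The 4 values of one genotype lay entirely to one side of the 4 of the other for the same 1 gene of 10, against 15.1% of all genes (10.9% lower and 4.13% higher). With only 10 genes, these counts do not set the family apart from all genes. Of the 10 differences 9 were negative, as were 65.5% of all genes, and 7 of 10 lay below the median of all genes. The median of the 10 was −0.17, or −0.06 relative to all genes.

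**Figure D1:**
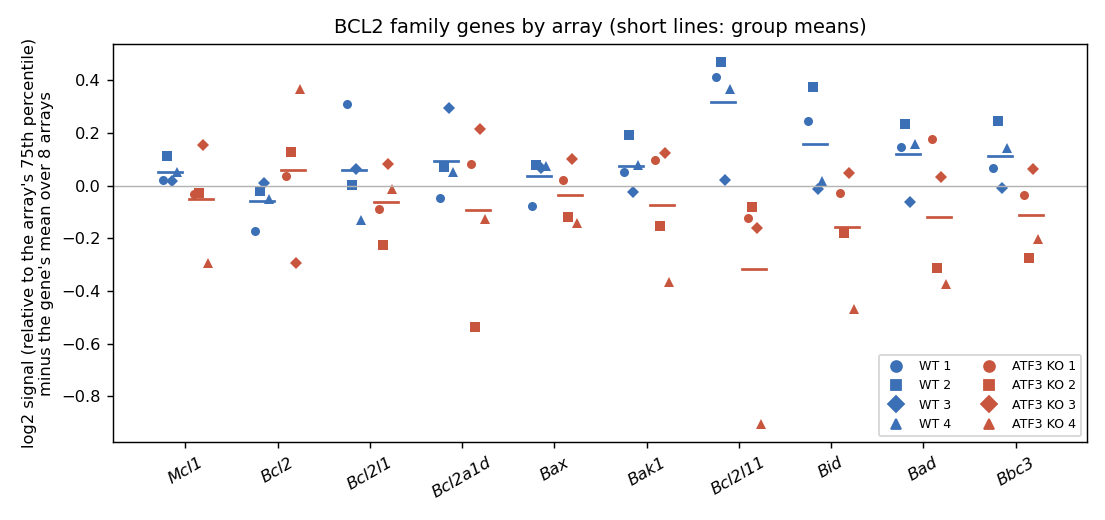
Signal of the 10 BCL2 family genes on each array. The vertical axis is the log2 level scaled as above, minus the gene's own mean over the 8 arrays; colours mark the genotype, symbols the replicate, and short lines the group means. The groups overlap for every gene except Bcl2l11, whose 4 ATF3 KO values lie below the 4 WT values.

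Split by role, the 4 anti-apoptotic genes had a median difference of −0.11 and the 2 pore formers also −0.11, both within 0.01 of the median of all genes. The 4 BH3-only genes had a median of −0.28, and all 4 lay below the median of all genes. Not every BH3-only gene tested did so. Bmf, a further BH3-only gene named here after its values were seen, differed by 0.02 (SE 0.27, limma adjusted p = 0.971). Pmaip1, another outside the 4, differed by −0.52 (SE 0.22, limma adjusted p = 0.195). The largest single difference in the family, −0.64, was that of the BH3-only gene Bcl2l11. These medians describe genes chosen with earlier results of these data known, and no test was made on them.

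**Figure D2:**
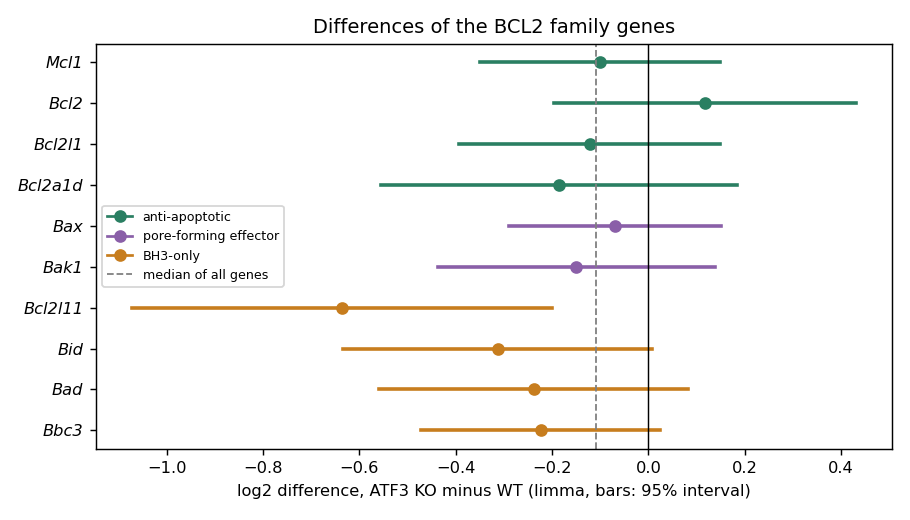
Log2 difference, ATF3 KO minus WT, of the 10 BCL2 family genes, with 95% intervals from limma and colours for the role in the family. The dashed line is the median of all genes (−0.11). The interval of Bcl2l11 alone leaves out 0, and after adjustment over all genes it did not pass.

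Bcl2l11 encodes BIM, which binds all the anti-apoptotic members. In WT its level was −2.07, −2.02, −2.46 and −2.12 in replicates 1 to 4, and in ATF3 KO it was −2.61, −2.57, −2.65 and −3.39. Every ATF3 KO value was lower than every WT value, and ATF3 KO replicate 4 lay far below the rest. The difference was −0.64 (SE 0.19, 95% interval −1.07 to −0.20), which is 0.644 times the WT signal, with an unadjusted p of 0.00907 and a limma adjusted p of 0.138. It stood at percentile 1.22 among the differences of all genes.

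The Bcl2l11 probe was dim. Its processed signal, in scanner units, was 51.2, 53.3, 29.8 and 34.7 in the WT replicates and 26.3, 26.0, 22.1 and 10.7 in the ATF3 KO replicates. It exceeded background in 4 of 4 WT and 3 of 4 ATF3 KO samples, the exception being replicate 4. Raw median signals of 69.0 to 111 stood over local backgrounds of 26.0 to 38.0. Without ATF3 KO replicate 4 the difference was −0.44 (SE 0.12, limma adjusted p = 0.195). With normexp, a model-based background correction run here on the raw median signal with an offset of 50, it was 0.01 (SE 0.10, adjusted p = 0.936), and in the authors' log2 table −0.17 (SE 0.09, adjusted p = 0.299). The sign of the Bcl2l11 difference thus turned in the setting that changed the input signal, the background correction and the offset together, and which of these moved it was not tested.

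**Figure D3:**
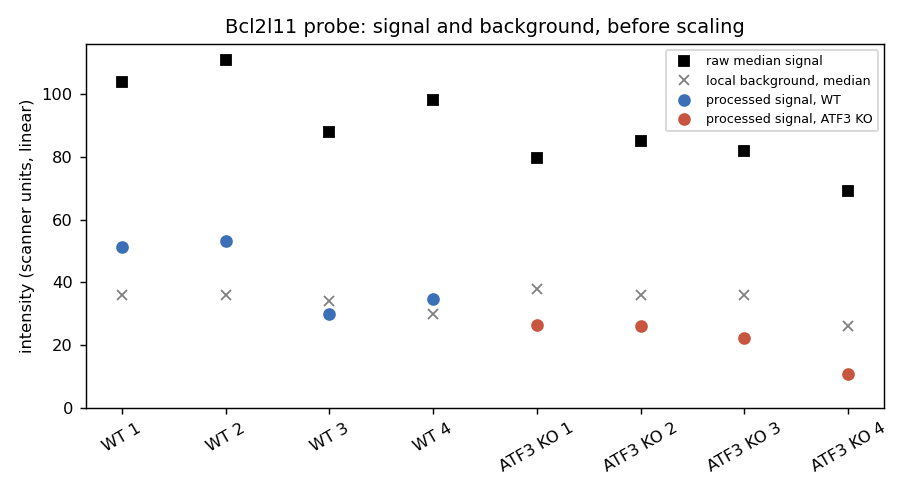
Signal of the single Bcl2l11 probe on each array in linear scanner units, before scaling between arrays. Squares are the raw median signal, crosses the local background and circles the processed signal, which is 53.3 on the brightest WT array and 10.7 on ATF3 KO replicate 4.

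The 250 bases upstream of the Bcl2l11 start with the lower coordinate, chr2:128125788-128126037 on the plus strand of GRCm38.p6 from RefSeq, are shown because this gene had the largest difference of the family. They are rich in C and G (72.0%).
Bcl2l11: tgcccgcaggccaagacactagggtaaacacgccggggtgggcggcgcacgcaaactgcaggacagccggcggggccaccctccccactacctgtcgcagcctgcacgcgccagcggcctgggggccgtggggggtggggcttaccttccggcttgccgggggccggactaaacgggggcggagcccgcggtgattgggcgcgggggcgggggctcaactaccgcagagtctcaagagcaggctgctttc

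These bases were searched on both strands for letters that proteins of the ATF/CREB and AP-1 families are known to bind, namely TGACGTCA (the cAMP response element), TGACTCA (the AP-1 element) and TGACG (the core shared with the response element, which overlaps it). The Bcl2l11 window above holds none of the 3. RefSeq gives 16 such windows of 250 bases for the 10 genes, several genes having more than 1 start. TGACGTCA was in 0 of the 16 and in 1.55% of all 32851 windows, and TGACTCA was in 0 of 16 and in 4.46%. TGACG was in 3 of 16 and in 17.8% of all windows. The 3 matches are shown with 15 bases on either side, the match in capitals, and each is read 5′ to 3′ in the direction of its gene. A match describes letters only, and binding was not measured.
Bcl2: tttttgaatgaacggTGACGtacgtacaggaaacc
Bcl2a1d: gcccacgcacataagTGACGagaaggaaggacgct
Bbc3: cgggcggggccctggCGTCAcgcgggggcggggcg

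The Bcl2 match begins 107 bases before the start (chr1:106714378-106714412, minus strand), the Bcl2a1d match 22 bases before it (chr9:88731853-88731887, minus strand) and the Bbc3 match 55 bases before it (chr7:16309513-16309547, plus strand). Of these 3 genes, 1 had a positive and 2 a negative difference, and none passed the test.

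Bid encodes a BH3-only protein that caspases cut into its active form. Its level was 4.66, 4.79, 4.40 and 4.44 in the WT replicates and 4.39, 4.24, 4.47 and 3.95 in the ATF3 KO replicates. The groups overlapped through ATF3 KO replicate 3, which lay above WT replicates 3 and 4. The Bid difference of −0.31 (SE 0.14, 95% interval −0.63 to 0.01) had a limma adjusted p of 0.216. Without ATF3 KO replicate 4 it was −0.21 (SE 0.13, adjusted p = 0.393).

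Bbc3 encodes PUMA, a BH3-only protein known as a target of p53. WT replicates gave 2.38, 2.56, 2.31 and 2.46 and ATF3 KO replicates gave 2.28, 2.04, 2.38 and 2.12. ATF3 KO replicate 3 again reached into the WT range. The Bbc3 difference was −0.22 (SE 0.11, 95% interval −0.47 to 0.02, limma adjusted p = 0.236).

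Bad encodes a BH3-only protein that growth factor signalling holds inactive by phosphorylation. On the brighter of its 2 probes the WT replicates were at 4.99, 5.07, 4.78 and 5.001 and the ATF3 KO replicates at 5.02, 4.53, 4.87 and 4.47. ATF3 KO replicates 2 and 4 were low, and replicates 1 and 3 lay within the WT range. The difference was −0.24 (SE 0.14, 95% interval −0.56 to 0.08, limma adjusted p = 0.304). The other Bad probe gave −0.28 (SE 0.17, limma adjusted p = 0.321 over all probes), with ATF3 KO replicates 2 and 4 again the lowest.

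Among the anti-apoptotic genes, Mcl1 is the one on which mouse neutrophils are known to rely. On its brighter probe the WT replicates lay close together, at 7.21, 7.30, 7.20 and 7.24, and the ATF3 KO replicates at 7.15, 7.16, 7.34 and 6.89. The highest and the lowest of the 8 values were both from ATF3 KO. The Mcl1 difference was −0.10 (SE 0.11, limma adjusted p = 0.556), or 0.01 relative to all genes. The 95% interval ran from −0.35 to 0.15. Under this scaling it leaves out, in these samples, a change of the group mean to under 0.785 or over 1.11 times the WT signal. The other Mcl1 probe gave −0.09 (SE 0.10, adjusted p = 0.561 over all probes). These bounds depend on the processing. On the brighter probe the difference was −0.20 (SE 0.12) with normexp. It was 0.05 (SE 0.07) with the 75th percentile taken over probes above background on all arrays.

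The genes whose pattern over the 8 arrays, with each group's mean removed, was most like that of Mcl1 were B4galt1 (Pearson r = 0.995), Ak3 (0.994) and Btbd7 (0.993). These r values describe 8 arrays, on each of which all genes share 1 hybridisation and 1 scaling factor.

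Bcl2, the founding member of the family, is known to be expressed in lymphocytes. It was the 1 gene of the 10 with a positive difference. The WT replicates were at −1.45, −1.30, −1.27 and −1.33 and the ATF3 KO replicates at −1.24, −1.15, −1.58 and −0.91. ATF3 KO held both the lowest value, in replicate 3, and the highest, in replicate 4, and the difference of 0.12 (SE 0.14, 95% interval −0.20 to 0.43) did not pass (limma adjusted p = 0.586). Without ATF3 KO replicate 4 it was 0.02 (SE 0.12, adjusted p = 0.953). Relative to all genes the Bcl2 difference was 0.23.

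Bcl2 is read here beside the markers of the B lineage. Their summed signal, in multiples of the array's 75th percentile, ran from 54.9 to 79.8 in WT and from 109.9 to 124 in ATF3 KO, with no overlap. All 12 B lineage markers were measured and had positive differences, 6 of 12 without overlap between the groups (4.13% of all genes in that direction), and none passed limma's threshold. ATF3 KO replicate 4, with the highest Bcl2 level, had a B lineage sum of 124, and ATF3 KO replicate 3, with the lowest, had one of 123. The part of B lineage cells in the Bcl2 level was not tested. In a sorted fraction, fewer cells of a type and less RNA per cell cannot be told apart.

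Bcl2l1 encodes BCL-XL, and its alternative transcript a shorter death-promoting form that these probes were not matched to separate. On the brighter probe the WT replicates gave 5.82, 5.51, 5.57 and 5.38 and the ATF3 KO replicates 5.42, 5.28, 5.59 and 5.50. The groups overlapped widely, with a difference of −0.12 (SE 0.12, 95% interval −0.39 to 0.15, limma adjusted p = 0.512). The other Bcl2l1 probe gave 0.01 (SE 0.12, adjusted p = 0.963 over all probes). Its sign differed from that of the first, and neither difference exceeded the spread between replicates.

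Bcl2a1d encodes A1-d, one of the nearly identical mouse A1 proteins that are induced in activated leukocytes. WT replicates were at 3.65, 3.76, 3.99 and 3.75 and ATF3 KO replicates at 3.77, 3.16, 3.91 and 3.57. ATF3 KO replicate 2 was the lowest of the 8. The difference was −0.19 (SE 0.16, 95% interval −0.55 to 0.18, limma adjusted p = 0.465). The A1 genes are so alike that this probe may read several of them. Bcl2a1a and Bcl2a1b have no named probe, and the probe of Bcl2a1c, a further A1 gene named here after its values were seen, differed by −0.37 (SE 0.17, adjusted p = 0.213), with ATF3 KO replicate 2 again the lowest. Most like Bcl2a1d over the 8 arrays, with group means removed, were Nr1h3 (Pearson r = 0.978), Papss2 (0.971) and Akr1c13 (0.970).

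BAX and BAK form the pores themselves, and for both genes the groups overlapped. Bax was at 3.15, 3.31, 3.29 and 3.30 in WT and at 3.25, 3.11, 3.33 and 3.09 in ATF3 KO. Its difference was −0.07 (SE 0.10, 95% interval −0.29 to 0.15, limma adjusted p = 0.649). Bak1 was at 4.47, 4.61, 4.39 and 4.50 in WT and at 4.52, 4.26, 4.54 and 4.05 in ATF3 KO. Its difference was −0.15 (SE 0.13, 95% interval −0.44 to 0.14, limma adjusted p = 0.452). In both genes ATF3 KO replicate 3 reached the WT range and replicate 4 was the lowest of the 8 arrays.

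The spread within ATF3 KO was shared by much of the family. On ATF3 KO replicate 4 the signal of 9 of the 10 genes lay below the gene's mean over the 8 arrays, and likewise on ATF3 KO replicate 2, whereas it was 5 of 10 on replicate 1 and 2 of 10 on replicate 3. The median deviation of the 10 genes was −0.25 on replicate 4, where that of all genes was −0.08, and −0.17 on replicate 2, where that of all genes was −0.10. Replicate 4 had the lowest 75th percentile, 113, and the smallest share of probes above background, 46.0%. The standard deviation was larger in ATF3 KO than in WT for 9 of the 10 genes, Bcl2l1 being the exception. The share of all genes was not counted. Over all genes tested, the root mean square difference between 2 arrays ran from 0.282 to 0.410 within WT. Within ATF3 KO it ran from 0.401 to 0.520, so a wider spread in ATF3 KO was not particular to the family. Without ATF3 KO replicate 3 the groups did not overlap for 5 of 10 genes, Mcl1, Bcl2, Bcl2l11, Bid and Bbc3, against 29.5% of all genes. Bcl2 was the higher 1 (8.59% of all genes) and the other 4 were lower (20.9%) in ATF3 KO. None of the 10 passed limma's threshold there (lowest adjusted p = 0.094), against 234 of all 21251 genes. At an unadjusted limma p under 0.05 there were 3 of 10. The share of all genes was not counted for that setting, and was 23.9% with all 8 arrays. Without WT replicate 3 it was 2 of 10, Bcl2l11 and Bbc3, both lower, against 24.3% of all genes (17.4% lower).

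**Figure D4:**
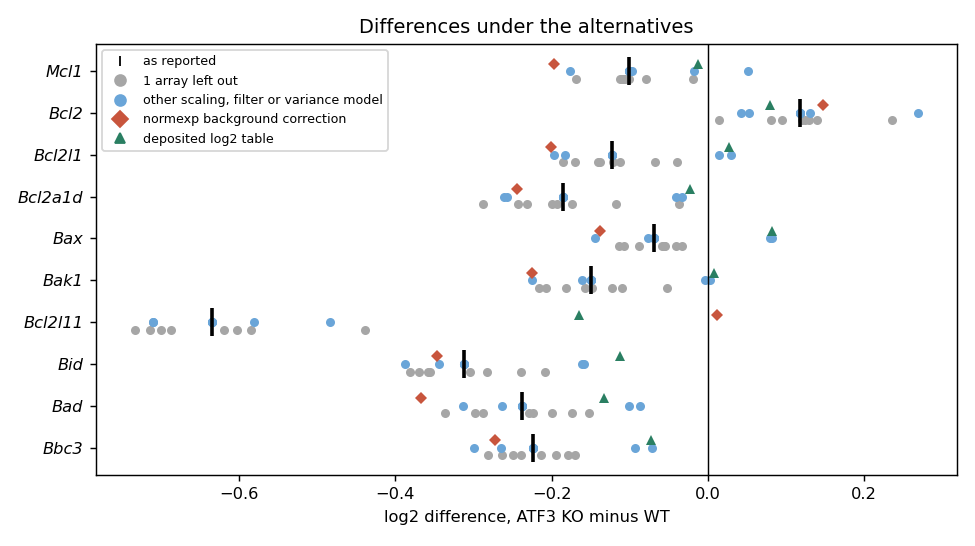
Log2 difference, ATF3 KO minus WT, of each BCL2 family gene under the settings tried. Black bars are the values reported, grey points leave out 1 array, blue points change the scaling, filter or variance model, diamonds use normexp background correction and triangles the deposited log2 table. Bid, Bad, Bbc3 and Bcl2a1d stay below 0 throughout, Bcl2 stays above 0, and Bcl2l11 runs from −0.73 to 0.01.

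Other genes of the pathway gave no call either. Of 18 further BCL2 family genes 16 have a named probe and 12 were tested. None passed limma's threshold. At an unadjusted p under 0.05 there were 0 higher and 2 lower, where 9.38% of all genes were higher and 14.5% lower, and their median difference was −0.21, or −0.10 relative to all genes. The smallest p-values belonged to Bcl2l13, a mitochondrial family member (−0.26, SE 0.11, adjusted p = 0.192), and Pmaip1, which encodes the BH3-only protein NOXA that binds MCL1 (−0.52, SE 0.22, adjusted p = 0.195). Pmaip1 overlapped between the groups, at 2.64 to 3.37 in WT and 2.12 to 3.10 in ATF3 KO. The BH3-only genes Bik and Hrk were above background on no array.

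Of the mitochondrial death machinery and its regulators, 14 genes were tested and none passed. At an unadjusted limma p under 0.05 there were 0 higher and 4 lower (9.38% and 14.5% of all genes). All 14 differences were negative, with a median of −0.22, or −0.11 relative to all genes. The groups did not overlap for 5 of 14, all lower in ATF3 KO, against 10.9% of all genes in that direction. Vdac2, Vdac3 and Xiap were among these 5, as was Vdac1, so the 5 are not a set acting after the pores. Vdac2, Vdac3 and Xiap are named here after their values were seen. Vdac1, which encodes a channel of the outer mitochondrial membrane, differed by −0.26 (SE 0.10, limma adjusted p = 0.178). Among 15 survival receptors and regulators none passed, with 1 higher and 2 lower at an unadjusted p under 0.05 (9.38% and 14.5% of all genes), and their median lay 0.03 above that of all genes. Csf3r, the receptor for G-CSF, which sustains neutrophils, differed by 0.31 (SE 0.11, adjusted p = 0.159), and Stat5a, a signal transducer of cytokine receptors, by −0.24 (SE 0.11, adjusted p = 0.205).

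Marker sums of the other cell types overlapped between the groups. Neutrophil markers summed to 7727 to 9710 in WT and 9522 to 11596 in ATF3 KO, monocyte and macrophage markers to 213 to 242 and 167 to 223, T and NK markers to 20.8 to 23.5 and 15.9 to 22.3, and megakaryocyte markers to 26.2 to 39.7 and 29.2 to 80.01. Erythroid markers summed to 1752 to 2138 in WT and 1899 to 2484 in ATF3 KO, and those of eosinophils, basophils and mast cells to 25.3 to 35.7 and 32.2 to 52.8. Among these markers only Gata2, a transcription factor of the last group, passed (0.75, SE 0.13, limma adjusted p = 0.0494). Its log2 level was −2.34 in WT and −1.59 in ATF3 KO, above background in 4 of 4 samples of each. Of the 8 markers of that group 5 had a negative and 3 a positive difference. Klrb1c, a defining NK marker, was above background on no array. The part of these cells in the differences of the BCL2 family genes was not tested.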

How the data were processed

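Each of the 8 samples was hybridised, with Cy3 as the only dye, to an Agilent array, per the labels' protocols. The authors deposited the linear intensity of every spot as Agilent Feature Extraction wrote it. The software's version is 10.9.1.1 in the file headers, while the submitters' processing notes name 10.10. The processed signal is background-subtracted and spatially detrended. The deposited table of the series holds log2 values, whose normalization and centring are not stated. Its columns had medians from 6.13 to 6.15 and correlated with the log2 raw median signal of their own array (r from 0.998 to 1.00 across probes), and it was used as an alternative. Sample titles gave the groups and the replicate numbers.

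Control spots and outlier-flagged spots (98 to 159 per array, none of them of a BCL2 family probe) were left out and the spots of a probe averaged. Processed signals were divided by their 75th percentile on that array, over 55681 probes (50.02% of values exceeded background), and log2 transformed. A probe was kept when above background on at least 4 of 8 arrays (27948 probes), and the brightest kept probe stood for a gene. Symbols came from RefSeq accessions in a GRCm38.p6 table, found for 27235 probes and not for 28446. The array design names mm9, and the only coordinates given are those of RefSeq promoter sequences in GRCm38.p6.

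Genotypes were compared with limma 3.58.1 in R 4.3.3, with a term for genotype alone. The threshold was 0.05 on p-values adjusted over all genes by Benjamini and Hochberg. The row of an array on its slide may coincide with genotype, and no term was fitted for it. On simulated data for this comparison, over 21251 genes, a change of 1.5-fold was found for 28% of the genes given it, one of 2-fold for 60% and one of 4-fold for 94%. The smallest root mean square difference between 2 arrays was 0.282, so each array counts as 1 sample, and their number limits the precision. All genes of the family were named whatever their values, with the 2 smallest p-values from each further list and any marker that passed; 1 gene that this rule names is not reported here. The genes and lists were chosen with earlier results of these data known. A background alternative was planned on the mean signal, which the files used here do not hold, and used the median signal.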

Additional observations from a re-analysis of the deposited data

Results flagged for a closer look

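Single arrays stood apart from the other 3 of their group for 3 of the 42 group values examined, where chance gives about 5%. For Bcl2l11, ATF3 KO replicate 4 lay at −3.39 and the next lowest at −2.65, a gap of 0.899 of the group's range. For Bax, WT replicate 1 lay at 3.15 and the next lowest at 3.29, a gap of 0.927 of a narrow range. For the dimmer Mcl1 probe, ATF3 KO replicate 3 lay at 5.97 and the next highest at 5.74, a gap of 0.88 of the range.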

How the results depend on the processing

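None of the 10 BCL2 family genes passed under any of the 19 alternatives (18 for Bcl2l11, which the filter on all 8 arrays removes), the lowest adjusted p being 0.0831, for Bcl2l11 with array weights. The further lists and the probe counts also stayed at 0. Signs turned for Bcl2l11 with normexp (0.0119). With the percentile over probes detected on all arrays they turned for Mcl1 (0.0513), Bcl2l1 (0.0299), Bax (0.0829) and Bak1 (0.0028). That setting shifts all genes of an array alike. Relative to all genes these 4 stayed as reported, at 0.0074, −0.014, 0.0389 and −0.0412. Signs also turned for Bcl2l1 (0.0146) and Bax (0.0805) with quantile normalization. With the deposited table they turned for Bcl2l1 (0.0275), Bax (0.0825) and Bak1 (0.0075). The cause was not tested for normexp, quantile normalization or the deposited table. The number of family genes without overlap was 0 with normexp (15.7% of all genes), the deposited table (12.2%) and the filter on all 8 arrays (15.9%). It was also 0 with median scaling (7.89%) and the percentile over detected probes (10.6%). When 1 array was left out it ran from 1 to 5, against 16.3% to 29.5% of all genes. Relative to all genes, Bid, Bad and Bbc3 were negative in all 19 alternatives and Bcl2 positive in all 19. The count over all genes, 95, was 251 with normexp (62.2% of them higher, against 82.1%), 31 with quantile normalization (71.0%), 217 with median scaling, 44 with the percentile over detected probes, 10 with no filter (40.0% higher), 58 with every probe tested, 149 with the deposited table, 192 with trend and robust variances (70.8%), 244 with array weights and from 9 to 234 when 1 array was left out (9, 36, 13 and 59 for WT replicates 1 to 4, and 124, 20, 234 and 29 for ATF3 KO replicates 1 to 4). Higher calls made up 33.3% and 53.8% of these when WT replicates 1 and 3 were dropped, and 60.0% and 65.5% when ATF3 KO replicates 2 and 4 were. Scaling moved the median difference of all genes from −0.18 to 0.04. The replicate numbers gave no sign of pairing, as deviations of same-numbered arrays correlated at 0.19, −0.13, −0.27 and 0.18. Those of differently numbered arrays ran from −0.31 to 0.30. With so few arrays these correlations cannot exclude a pairing. In a fit with the replicate block 72 genes and 0 family genes passed, with an adjusted p of 0.201 for Bcl2l11. Signal over background limits Bcl2l11, the 1 gene of the 10 whose probe was not above background on every array.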
